A study of Arabidopsis thaliana with 12 samples.

Results

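In Arabidopsis thaliana seedlings, 65 genes had higher RNA levels in both smeb-1 and smeb-2 than in the Col-0 wild type, with salt and without it. They were chosen by their own values in the deposited FPKM table (fragments scaled by transcript length and library total). A member had a mean FPKM of at least 2 over the 12 libraries, and in each mutant line its group mean of log2(FPKM + 1) exceeded that of Col-0 by at least 0.7 in both treatments. The table holds 33559 genes, of which 17837 reach that mean FPKM. The mirrored rule, with both lines lower than Col-0 by the same margin, finds 50 genes. Among the 65 were 17 genes of root hairs, extensins and wall peroxidases, a set put together after the values were seen. All 17 fell with salt in smeb, as the mean of both lines, and in Col-0, where 33.2% and 27.7% of all genes tested fell. Their median changes were -1.69 and -2.34 on the log2(FPKM + 1) scale. A noncoding RNA, AT4G04223, ranked first when members were ordered by their lowest difference from Col-0 over both lines and treatments, and the most abundant members, such as GER3 and GASA1, encode wall and growth proteins.

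The study asked how SmEb acts in the salt response. Whole seedlings of 12 days, grown on MS medium, formed 6 groups of 2 libraries. These were smeb-1, smeb-2 and Col-0 treated with 200 mM NaCl for 6 h, and smeb-1, smeb-2 and Col-0 without salt. The description of each treated sample names Cd where its title and protocol name NaCl, and NaCl is used here. The labels name smeb-1 and smeb-2 as mutants without giving the lesions, and they give the harvest of the untreated seedlings in unlike ways, so time without salt may differ from time with it. Nothing states that the libraries of a group came from separate cultures, so the tests measure the spread between these libraries, which may be technical.

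SmEb is an Sm protein, one of the proteins that form a ring on the small nuclear RNAs of the spliceosome. Several of the 65 genes belong to root hairs, the tubular outgrowths of root epidermal cells that take up water and ions. Their walls are built from proline-rich proteins and extensins, rod-like glycoproteins that peroxidases cross-link, and xyloglucan endotransglucosylases loosen and rejoin the wall as the tip grows. Genes of root hair cells often carry in their promoters the root hair element, a short sequence bound by transcription factors of root hair growth.

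This element was found in the 300 bases upstream of the annotated start of PRP1, PRP3 and RHS13. These 3 promoters are shown because they are the ones with this element among the root hair, extensin and peroxidase members, which moved together with salt. They are given on the strand of the gene in the TAIR10.1 assembly, from RefSeq, at chr1:20504601-20504900 (PRP1, plus strand), chr3:23182422-23182721 (PRP3, plus strand) and chr4:993040-993339 (RHS13, minus strand). Capitals mark the match to the root hair element, which reads on the opposite strand in PRP1 and PRP3 and on the gene's own strand in RHS13.
PRP1: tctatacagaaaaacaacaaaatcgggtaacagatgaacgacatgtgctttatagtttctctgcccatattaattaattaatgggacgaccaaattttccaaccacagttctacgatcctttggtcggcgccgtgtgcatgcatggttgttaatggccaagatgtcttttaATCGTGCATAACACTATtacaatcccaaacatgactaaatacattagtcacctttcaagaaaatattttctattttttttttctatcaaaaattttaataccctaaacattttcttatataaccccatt
PRP3: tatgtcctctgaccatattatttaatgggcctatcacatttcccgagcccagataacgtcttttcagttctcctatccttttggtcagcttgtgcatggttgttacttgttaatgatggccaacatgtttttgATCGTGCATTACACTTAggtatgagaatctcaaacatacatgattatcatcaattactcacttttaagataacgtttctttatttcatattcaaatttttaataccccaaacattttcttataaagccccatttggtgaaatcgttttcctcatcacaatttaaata
RHS13: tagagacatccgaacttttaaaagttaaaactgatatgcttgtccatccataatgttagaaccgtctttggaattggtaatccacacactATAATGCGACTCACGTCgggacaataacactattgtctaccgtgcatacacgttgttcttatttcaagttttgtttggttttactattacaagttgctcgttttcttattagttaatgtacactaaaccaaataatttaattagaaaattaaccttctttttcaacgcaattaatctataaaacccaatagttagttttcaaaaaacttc

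Counting the base before the annotated start as -1, the match lies from -129 to -113 in PRP1, from -167 to -151 in PRP3 and from -210 to -194 in RHS13. Searched on both strands, the element occurred in the 300 upstream bases of 4 of 64 members, or 6.25%, and of 0.869% of 20143 tested genes in the annotation. The fourth member was GRP19, a glycine-rich protein gene. In 1000 upstream bases it occurred in 7 of 64 members and in 2.90% of tested genes. The matches of PRP1 and PRP3 lie in similar stretches, so they need not be independent. A match is a description of letters and not a known binding site of these genes.

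SmEb (AT2G18740, chr2:8123195-8125078) checks the labels. With salt it had 23.2 and 22.9 FPKM in smeb-1, 1.92 and 2.04 FPKM in smeb-2 and 73.3 and 76.1 FPKM in Col-0. Without salt it had 27.6 and 26.0 FPKM in smeb-1, 4.93 and 6.24 FPKM in smeb-2 and 58.9 and 55.1 FPKM in Col-0. Both lines lay below Col-0 in each treatment, and smeb-2 lay below smeb-1. Replicate libraries correlated across genes at Pearson's r of 0.984 to 0.994. The Col-0 salt pair was the least alike, with a median absolute log2 difference of 0.167 against 0.0847 to 0.0998 in the other pairs. Read totals are not given, and the depth relative to the geometric mean of the 12 libraries, estimated from low values, was 0.821 to 1.74.

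The excess over Col-0 had a median of 1.29 with salt and 1.04 without it on the log2(FPKM + 1) scale, as the mean of both lines. These differences were used to choose the members, so they are given as a description with no test. The scale understates changes of low genes. The 4 smeb libraries lay wholly above the 2 Col-0 libraries for 61 of 65 members with salt and for 64 of 65 without it, against 18% and 24% of all genes tested. The rule used these libraries, so nothing is read from the counts. The exceptions with salt were PCR1, AT5G64401, AT1G69325 and ATCG00070, and the exception without salt was AT5G64401. Just inside the threshold lay AT2G36885, AT1G69325 and AT4G25790, whose smallest of 4 differences was 0.703, 0.704 and 0.710. XTH15, XTH12 and APG10 lay just outside, with 0.699, 0.699 and 0.690.

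**Figure D1:**
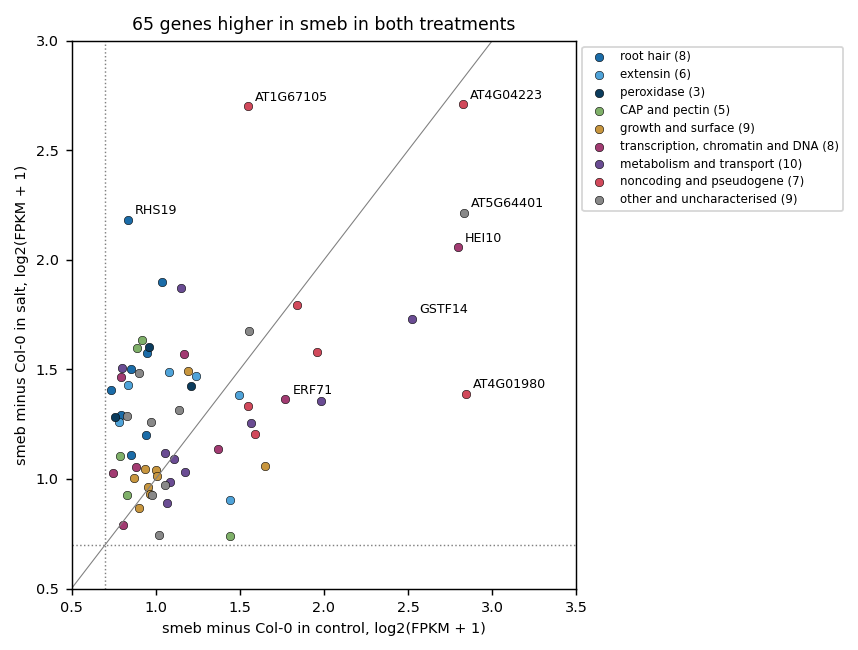
Difference of group means, smeb (mean of smeb-1 and smeb-2) minus Col-0, on the log2(FPKM + 1) scale, without salt (x axis) and with salt (y axis), 1 point per member and coloured by annotated role. Dotted lines mark 0.7 and the grey line marks equal differences. RHS19 and AT1G67105 lie far above the line, and AT4G01980, GSTF14 and HEI10 lie below it.

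Members were grouped by annotated role after their values were seen: 8 root hair genes, 6 extensins, 3 peroxidases, 5 genes of the CAP (cysteine-rich secretory) and pectin inhibitor families, 9 genes of growth and surface, 8 of transcription, chromatin and DNA, 10 of metabolism and transport, 7 noncoding RNAs and pseudogenes, and 9 others.

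Noncoding RNAs and pseudogenes held several of the widest gaps. AT4G04223, annotated as a noncoding RNA at chr4:2036511-2037816, had 54.4 and 59.8 FPKM in smeb-1, 55.7 and 56.8 FPKM in smeb-2 and 8.31 and 7.32 FPKM in Col-0 with salt. Without salt, AT4G04223 had 57.5 and 59 FPKM in smeb-1, 59.6 and 69.6 FPKM in smeb-2 and 7.2 and 8.4 FPKM in Col-0. Every smeb library lay between 54.4 and 69.6 FPKM and every Col-0 library between 7.20 and 8.40, and its smallest difference of the 4, 2.70, was the largest among the members.

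SADHU3-2, a pseudogene of a Sadhu retroelement family, had 8.7 and 12.7 FPKM in smeb-1, 14.6 and 14.4 FPKM in smeb-2 and 3.43 and 3.5 FPKM in Col-0 with salt. Without salt, SADHU3-2 had 10.4 and 15.4 FPKM in smeb-1, 17.9 and 10.3 FPKM in smeb-2 and 3.5 and 1.92 FPKM in Col-0. The smeb and Col-0 libraries did not overlap in either treatment, although the smeb-2 pair without salt was wide.

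AT1G67105, a noncoding RNA, had 20.8 and 35.9 FPKM in smeb-1, 42.2 and 24.7 FPKM in smeb-2 and 3.48 and 3.99 FPKM in Col-0 with salt. Without salt, AT1G67105 had 45.2 and 55.2 FPKM in smeb-1, 66.1 and 72.4 FPKM in smeb-2 and 26.1 and 14.4 FPKM in Col-0. Its level with salt was under that without salt in every genotype, and the excess of smeb over Col-0 was 2.70 with salt and 1.55 without it.

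AT2G01422, a noncoding RNA, had 1.37 and 2.96 FPKM in smeb-1, 4.5 and 2.46 FPKM in smeb-2 and 0.109 and 0 FPKM in Col-0 with salt. Without salt, AT2G01422 had 1.39 and 3.28 FPKM in smeb-1, 5.05 and 3.15 FPKM in smeb-2 and 0.109 and 0.126 FPKM in Col-0. All Col-0 libraries lay at or under 0.126 FPKM. A 0 here need not mean absence of RNA: 11 genes whose median FPKM is 5 or more also show a 0 in some library.

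AT1G15405, a noncoding RNA that overlaps another annotated gene, had 16.1 and 10.9 FPKM in smeb-1, 10.4 and 12.7 FPKM in smeb-2 and 2.36 and 7.37 FPKM in Col-0 with salt. Without salt, AT1G15405 had 43.8 and 33.7 FPKM in smeb-1, 47.9 and 30.5 FPKM in smeb-2 and 18 and 8.5 FPKM in Col-0. The Col-0 pairs were far apart within each treatment, and the smeb libraries still lay above both.

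The pseudogene AT4G01980 had 1.5 and 1.4 FPKM in smeb-1, 2.34 and 2.42 FPKM in smeb-2 and 0.208 and 0 FPKM in Col-0 with salt. Without salt, AT4G01980 had 6.81 and 4.17 FPKM in smeb-1, 8.87 and 5.66 FPKM in smeb-2 and 0 and 0 FPKM in Col-0. Since it is listed at 0 in Col-0, no fold is given. It overlaps AT4G02795, and strand use is not given in the sources used here, so reads of overlapping genes cannot be told apart. The same holds for HEI10, RHS19, AT4G26010, MES18, GMI1, AT5G60250, AT5G64401, AT1G15405, AT1G30160 and AT1G69325.

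The 8 root hair genes were PRP1, PRP3, RHS12, RHS13, RHS19, MOP10, COW1 and XTH14. Their excess over Col-0 had a median of 1.45 with salt and 0.85 without it. These are whole seedlings, so more root hair cells and more RNA per cell cannot be told apart.

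PRP3, a proline-rich wall protein of root hairs, had 8.9 and 4.24 FPKM in smeb-1, 3.22 and 4.05 FPKM in smeb-2 and 1.71 and 1.33 FPKM in Col-0 with salt. Without salt, PRP3 had 45.7 and 39.8 FPKM in smeb-1, 47.1 and 42.8 FPKM in smeb-2 and 22.6 and 22 FPKM in Col-0. Within each treatment the smeb libraries lay above the Col-0 libraries, and every smeb library with salt lay below every Col-0 library without it.

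RHS19, a peroxidase named as root hair specific, had 29.8 and 15.8 FPKM in smeb-1, 9.1 and 8.68 FPKM in smeb-2 and 2.67 and 1.98 FPKM in Col-0 with salt. Without salt, RHS19 had 27.9 and 30.8 FPKM in smeb-1, 28.5 and 27.7 FPKM in smeb-2 and 16.5 and 14.9 FPKM in Col-0. The smeb-1 libraries with salt were the highest of that treatment and far apart from each other.

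PRP1, another proline-rich wall protein, had 8.56 and 5.25 FPKM in smeb-1, 3.92 and 4.38 FPKM in smeb-2 and 1.74 and 0.812 FPKM in Col-0 with salt. Without salt, PRP1 had 18.3 and 20.9 FPKM in smeb-1, 20.7 and 17.8 FPKM in smeb-2 and 9.96 and 10.6 FPKM in Col-0. RHS13, a root hair specific protein whose promoter is shown above, had 18.9 and 10.2 FPKM in smeb-1, 6.95 and 8.04 FPKM in smeb-2 and 2.99 and 3.53 FPKM in Col-0 with salt. Without salt RHS13 had 48.6 and 55.9 FPKM in smeb-1, 53.8 and 50.5 FPKM in smeb-2 and 31 and 30.9 FPKM in Col-0. In both genes all 4 smeb libraries lay above Col-0 within a treatment, and salt libraries lay below control libraries in each genotype.

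XTH14, a xyloglucan endotransglucosylase of root hairs, had 29.1 and 21.9 FPKM in smeb-1, 19.3 and 22.5 FPKM in smeb-2 and 6.35 and 4.6 FPKM in Col-0 with salt. Without salt, XTH14 had 53.9 and 62.9 FPKM in smeb-1, 47.7 and 47.4 FPKM in smeb-2 and 25.8 and 24.5 FPKM in Col-0. COW1, a phosphatidylinositol transfer protein needed for root hair tip growth, had 6.07 and 4.8 FPKM in smeb-1, 4.23 and 5.0 FPKM in smeb-2 and 1.77 and 1.78 FPKM in Col-0 with salt. Without salt COW1 had 6.43 and 7.18 FPKM in smeb-1, 6.41 and 5.81 FPKM in smeb-2 and 3.16 and 3.09 FPKM in Col-0. MOP10, an Ole e 1 and extensin family protein, exceeded Col-0 by 1.58 with salt and 0.95 without it. RHS12, named as root hair specific, exceeded Col-0 by 1.29 with salt and 0.79 without it, and for neither gene did smeb and Col-0 libraries overlap.

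The extensins were EXT6, EXT11, EXT12, EXT13, HRGP1 and AT3G54580, with EXT11 annotated as a pseudogene. EXT12 had 2.85 and 1.63 FPKM in smeb-1, 1.29 and 1.77 FPKM in smeb-2 and 0.533 and 0.491 FPKM in Col-0 with salt. Without salt, EXT12 had 40.8 and 38.2 FPKM in smeb-1, 41 and 32.6 FPKM in smeb-2 and 13.4 and 13.4 FPKM in Col-0. The smeb libraries without salt, between 32.6 and 41.0 FPKM, lay far above those with salt.

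EXT13 had 6.6 and 2.62 FPKM in smeb-1, 2.59 and 1.67 FPKM in smeb-2 and 0.651 and 0.449 FPKM in Col-0 with salt. Without salt, EXT13 had 42 and 37.3 FPKM in smeb-1, 53.5 and 39.4 FPKM in smeb-2 and 14.8 and 14.2 FPKM in Col-0. EXT6 had 9.63 and 4.35 FPKM in smeb-1, 2.75 and 2.04 FPKM in smeb-2 and 0.694 and 0.909 FPKM in Col-0 with salt. Extensins share repeats, so reads can be split between copies: HRGP1 and AT3G54580 lie 2208 bp apart on chromosome 3 and their separate levels are uncertain.

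The peroxidases AT3G49960, AT4G26010 and AT5G17820 belong to the class that cross-links wall proteins. AT3G49960 had 10.8 and 5.7 FPKM in smeb-1, 5.53 and 5.16 FPKM in smeb-2 and 2.24 and 1.42 FPKM in Col-0 with salt. Without salt, AT3G49960 had 45.7 and 49.1 FPKM in smeb-1, 38.3 and 41 FPKM in smeb-2 and 20.7 and 16 FPKM in Col-0. All 3 peroxidases had 4 smeb libraries above Col-0 in each treatment.

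**Figure D2:**
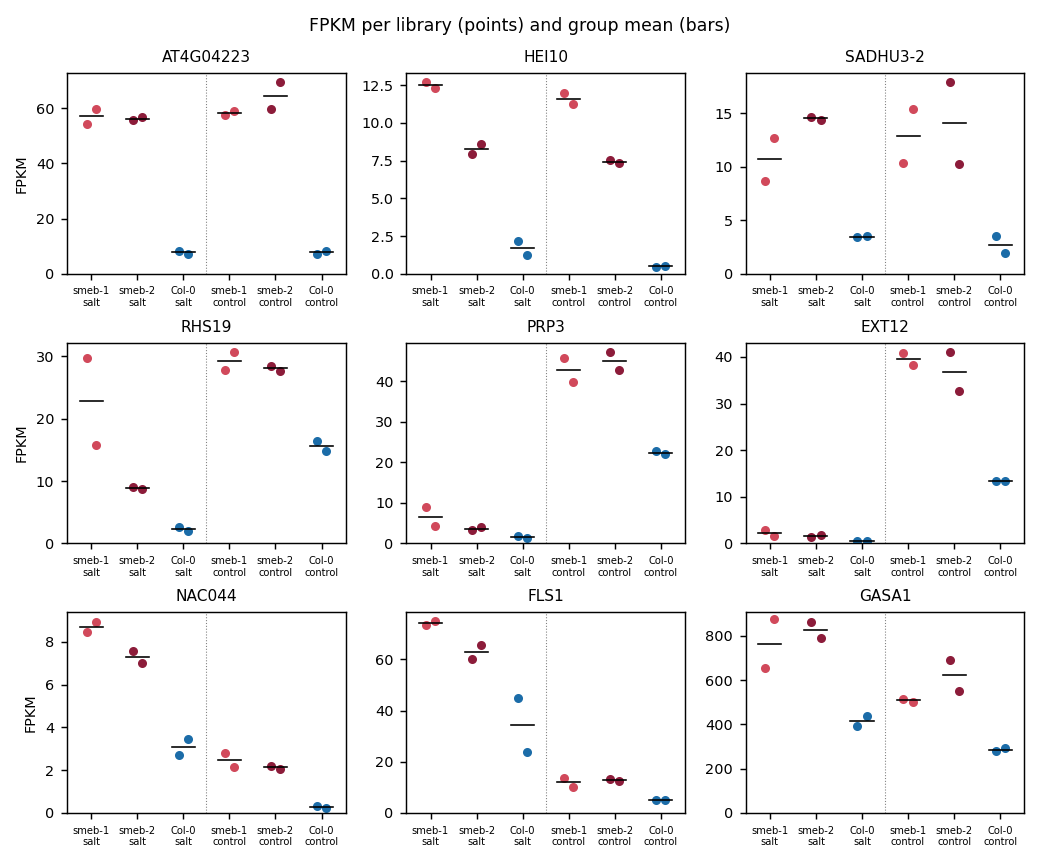
FPKM of 9 members in each library (points) with the group mean (black bars), for smeb-1, smeb-2 and Col-0 with salt (left of the dotted line) and without it (right), each panel with its own linear axis from 0. AT4G04223 stays near one level in each genotype, PRP3 and EXT12 are lower with salt, and NAC044, FLS1 and GASA1 are higher with salt. RHS19 is lower with salt in smeb-2 and Col-0, while its smeb-1 libraries overlap between the treatments.

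The growth and surface genes included the most abundant members. GER3, a germin-like wall protein, had 1468 and 1355 FPKM in smeb-1, 1471 and 1349 FPKM in smeb-2 and 867 and 688 FPKM in Col-0 with salt. Without salt, GER3 had 1558 and 1484 FPKM in smeb-1, 1573 and 1655 FPKM in smeb-2 and 849.9 and 828 FPKM in Col-0. Over both treatments the smeb libraries ran from 1349 to 1655 FPKM and the Col-0 libraries from 688 to 867 FPKM.

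GASA1, a small peptide of the gibberellin-regulated family, had 654 and 877 FPKM in smeb-1, 863 and 790.2 FPKM in smeb-2 and 391 and 438 FPKM in Col-0 with salt. Without salt, GASA1 had 515 and 501 FPKM in smeb-1, 691 and 552 FPKM in smeb-2 and 281 and 292 FPKM in Col-0. XTH9, a xyloglucan endotransglucosylase, had 175 and 182 FPKM in smeb-1, 148 and 123 FPKM in smeb-2 and 88.4 and 66.8 FPKM in Col-0 with salt. Without salt XTH9 had 963 and 938 FPKM in smeb-1, 756 and 794 FPKM in smeb-2 and 452 and 484 FPKM in Col-0. In GASA1 smeb libraries lay above Col-0 in each treatment and salt libraries were higher, and in XTH9 salt libraries were lower in each genotype.

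EXO, a gene of the EXORDIUM family that promotes cell expansion, had 179.6 and 239 FPKM in smeb-1, 205 and 217 FPKM in smeb-2 and 109 and 93.7 FPKM in Col-0 with salt. Without salt, EXO had 627 and 651 FPKM in smeb-1, 601 and 597 FPKM in smeb-2 and 295 and 323 FPKM in Col-0. XTH16 and PDF2.1, a xyloglucan endotransglucosylase and a defensin-like peptide, differed from Col-0 by 1.04 and 1.49 with salt, and by 0.94 and 1.19 without it. For both genes the smeb libraries lay above the Col-0 libraries in each treatment. The CAP and pectin inhibitor members were AT5G57625, AT4G25790, AT2G19970, AT5G04960 and AT1G23205, with differences from 0.74 to 1.63 with salt and 0.79 to 1.44 without it.

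HEI10, a RING protein of meiotic crossovers at chr1:19963267-19966952, had 12.7 and 12.3 FPKM in smeb-1, 7.93 and 8.6 FPKM in smeb-2 and 2.19 and 1.25 FPKM in Col-0 with salt. Without salt, HEI10 had 12 and 11.2 FPKM in smeb-1, 7.52 and 7.31 FPKM in smeb-2 and 0.433 and 0.537 FPKM in Col-0. HEI10 overlaps 3 annotated genes, so its level is uncertain, and its excess over Col-0 was 2.06 with salt and 2.80 without it.

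NAC044, a NAC transcription factor of the DNA damage response, had 8.45 and 8.94 FPKM in smeb-1, 7.55 and 7.0 FPKM in smeb-2 and 2.71 and 3.47 FPKM in Col-0 with salt. Without salt, NAC044 had 2.78 and 2.16 FPKM in smeb-1, 2.2 and 2.06 FPKM in smeb-2 and 0.338 and 0.208 FPKM in Col-0. GMI1, a gene induced by DNA damage and involved in DNA repair, had 5.18 and 4.99 FPKM in smeb-1, 5.01 and 5.11 FPKM in smeb-2 and 1.63 and 2.26 FPKM in Col-0 with salt. Without salt GMI1 had 3.14 and 3.22 FPKM in smeb-1, 2.62 and 2.83 FPKM in smeb-2 and 1.1 and 1.17 FPKM in Col-0. Both genes were higher with salt in every genotype, and smeb lay above Col-0 in each treatment.

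ERF71, a hypoxia-responsive ethylene response factor, had 10.8 and 14.1 FPKM in smeb-1, 15 and 13.2 FPKM in smeb-2 and 3.53 and 5.69 FPKM in Col-0 with salt. Without salt, ERF71 had 4.21 and 5.23 FPKM in smeb-1, 2.99 and 5.11 FPKM in smeb-2 and 0.915 and 0.261 FPKM in Col-0. AT5G60250, a RING finger protein gene, had 4.09 and 3.84 FPKM in smeb-1, 3.86 and 2.96 FPKM in smeb-2 and 0.539 and 0.604 FPKM in Col-0 with salt. Without salt AT5G60250 had 2.66 and 2.48 FPKM in smeb-1, 2.79 and 2.8 FPKM in smeb-2 and 0.592 and 0.687 FPKM in Col-0. DREB26 and AT4G37240, an ethylene response factor family gene and a gene annotated as a transcriptional regulator, and HTR11, a histone H3 gene, lay above Col-0 by 0.75 to 1.47.

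FLS1, flavonol synthase of the flavonol pathway, was the only member of the flavonoid and anthocyanin list. It had 73.5 and 75 FPKM in smeb-1, 60 and 65.7 FPKM in smeb-2 and 44.9 and 24 FPKM in Col-0 with salt. Without salt, FLS1 had 13.7 and 10.1 FPKM in smeb-1, 13.1 and 12.3 FPKM in smeb-2 and 4.86 and 4.86 FPKM in Col-0. Its Col-0 salt libraries were apart from each other, as in that pair in general.

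GSTF14, a glutathione transferase, had 13 and 5.64 FPKM in smeb-1, 4.66 and 3.41 FPKM in smeb-2 and 0.592 and 1.75 FPKM in Col-0 with salt. Without salt, GSTF14 had 53.1 and 59.5 FPKM in smeb-1, 53.5 and 51.7 FPKM in smeb-2 and 7.65 and 9.72 FPKM in Col-0. ICL, isocitrate lyase of the glyoxylate cycle, had 3.38 and 4.43 FPKM in smeb-1, 2.54 and 2.39 FPKM in smeb-2 and 0.632 and 0.583 FPKM in Col-0 with salt. Without salt ICL had 6.75 and 6.22 FPKM in smeb-1, 2.14 and 3.45 FPKM in smeb-2 and 0.242 and 0.442 FPKM in Col-0. The excess of GSTF14 over Col-0 was 1.73 with salt and 2.52 without it, and that of ICL was 1.36 with salt and 1.98 without it.

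LHCB4.3, a photosystem II antenna protein, had 135 and 124 FPKM in smeb-1, 95.7 and 102 FPKM in smeb-2 and 45.9 and 33.4 FPKM in Col-0 with salt. Without salt, LHCB4.3 had 25.8 and 30.1 FPKM in smeb-1, 25.8 and 25.8 FPKM in smeb-2 and 14.8 and 15.1 FPKM in Col-0. The other metabolism and transport members were GA2OX2, MES18, AT1G78990, ABCI21, PCR1 and AT2G18193, with PCR1 varying most between the libraries of a pair.

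AT5G64401, an uncharacterised gene, ran from 0 to 31.2 FPKM among the smeb libraries. It had 31.2 and 10.8 FPKM in smeb-1, 23.2 and 11.4 FPKM in smeb-2 and 0 and 14.7 FPKM in Col-0 with salt. Without salt, AT5G64401 had 20.1 and 0 FPKM in smeb-1, 4.91 and 19.5 FPKM in smeb-2 and 0 and 0 FPKM in Col-0. It overlaps AT5G64400, its smeb and Col-0 libraries overlap in level, and no fold is given because Col-0 is listed at 0. ATCG00070, which also overlapped, had 18.6 and 5.11 FPKM in smeb-1, 5.52 and 5.48 FPKM in smeb-2 and 8.1 and 0 FPKM in Col-0 with salt.

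More members fell than rose with salt in both genotypes. This comparison did not choose the members, although the same libraries did. The smeb libraries were tested as the mean of the 2 lines and Col-0 on its own, with limma on all 20251 genes that passed the filter, all 65 members among them. In smeb, 35 members fell and 15 rose with salt, and 15 did not pass an adjusted p of 0.05. Of all genes tested, 33.2% fell and 37.4% rose in smeb. The share of members that changed in either direction, 76.9%, was near the 70.6% of all genes tested, while the share that fell, 53.8%, was above its background. In Col-0, 32 members fell and 15 rose, against 27.7% and 34.1% of all genes tested, and 72.3% of members changed in either direction, against 61.8%. The median change was -0.524 in smeb and -0.571 in Col-0 for members, against 0.0258 and 0.0434 for all genes tested. Of the 65 members, 31 fell in both genotypes, 13 rose in both and 0 went opposite ways, against 23.6%, 29.5% and 0.81% of all genes tested.

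All 17 root hair, extensin and peroxidase members fell with salt in smeb, as the mean of both lines, and in Col-0. In smeb-1 alone, MOP10 (-0.19, adjusted p = 0.436), RHS19 (-0.41, adjusted p = 0.139) and COW1 (-0.28, adjusted p = 0.0609) were not called in the limma fit. The smeb-1 libraries of MOP10 and RHS19 overlapped between the treatments. The median change of the 17 was -1.69 in smeb and -2.34 in Col-0. In smeb the largest falls among members were EXT12 at -3.78 ± 0.12 (SE, adjusted p = 3.97e-09), EXT13 at -3.44 ± 0.21 (SE, adjusted p = 2.61e-07) and GSTF14 at -3.00 ± 0.23 (SE, adjusted p = 1.64e-06). PRP3 followed at -2.96 ± 0.17 (SE, adjusted p = 1.67e-07). In Col-0 they were EXT13 at -3.33 ± 0.29 (SE, adjusted p = 6.91e-06), EXT12 at -3.25 ± 0.17 (SE, adjusted p = 2.65e-07), PRP3 at -3.22 ± 0.24 (SE, adjusted p = 2.12e-06) and EXT6 at -2.98 ± 0.27 (SE, adjusted p = 9.58e-06). All 17 stayed called lower in both genotypes under 18 other settings of the fit. With a minimum fold of 2 as well, 13 of 17 were called in smeb, without COW1, MOP10, RHS12 and RHS19, and 16 of 17 in Col-0, without COW1.

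The largest rises in smeb were FLS1 at 2.39 ± 0.16 (SE, adjusted p = 6.22e-07) and AT2G18193, a P-loop ATPase gene, at 2.27 ± 0.11 (SE, adjusted p = 6.09e-08). AT1G23205, a pectin methylesterase inhibitor-like gene, rose by 2.12 ± 0.11 (SE, adjusted p = 8.63e-08) and LHCB4.3 by 2.04 ± 0.09 (SE, adjusted p = 3.13e-08). In Col-0 the largest rises were FLS1 at 2.53 ± 0.23 (SE, adjusted p = 8.37e-06), AT2G18193 at 2.20 ± 0.16 (SE, adjusted p = 1.75e-06), ERF71 at 1.83 ± 0.27 (SE, adjusted p = 2.15e-04) and NAC044 at 1.68 ± 0.13 (SE, adjusted p = 2.42e-06). Of 9 growth and surface genes 5 fell in smeb and 4 in Col-0, 1 rose in each, and 3 in smeb and 4 in Col-0 were not called. XTH9 changed by -2.46 ± 0.09 (SE, adjusted p = 7.01e-09) in smeb and -2.59 ± 0.12 (SE, adjusted p = 1.36e-07) in Col-0, and EXO by -1.56 ± 0.09 (SE, adjusted p = 1.33e-07) and -1.60 ± 0.12 (SE, adjusted p = 2.50e-06).

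**Figure D3:**
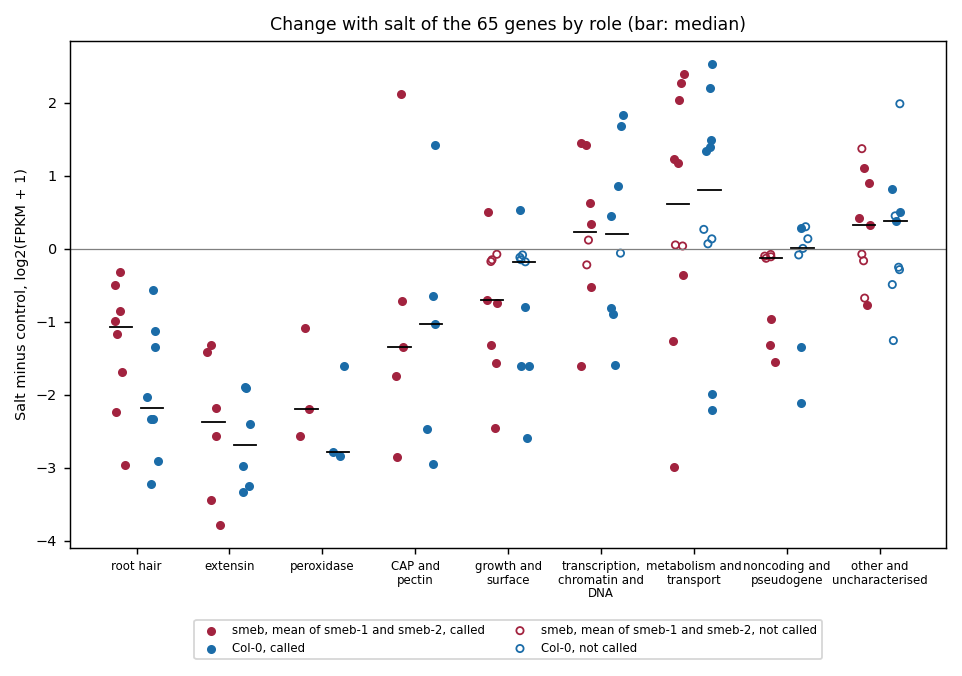
Change with salt of each member, salt minus control on the log2(FPKM + 1) scale, by annotated role (x axis), in smeb (red, left in each role) and in Col-0 (blue, right). Filled points passed an adjusted p of 0.05, open points did not, and black bars are medians. All root hair, extensin and peroxidase points lie below 0.

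AT5G60250, AT5G62210, CP1, AT1G69325, ICL and AT4G01980 were called with salt in smeb, as the mean of both lines, and not in Col-0. DREB26, HEI10 and AT5G38005 were called in Col-0 and not in smeb. Of all genes tested, 16.6% were called in smeb alone and 7.83% in Col-0 alone. Over the 18 other settings this pattern of calls held in 6 for AT5G38005, 13 for ICL, 14 for AT1G69325 and 17 for AT5G62210, and in all 18 for the other 5 genes. With the column suffix as a replicate block AT5G38005 was not called in Col-0 (adjusted p = 0.0502 in limma). Without one Col-0 salt library AT5G62210 was called in Col-0, at 0.96. These are calls past or short of a threshold, and the difference in salt response was not tested because the rule used it. As a description, it was 1.35 for RHS19, 1.15 for AT1G67105 and 0.86 for XTH14, the 3 largest. The 3 smallest were -1.45 for AT4G01980, -0.79 for GSTF14 and -0.74 for HEI10. AT4G01980 was listed at 0 in both Col-0 libraries without salt, so a fall in Col-0 could not be seen. Its call in smeb alone and its difference in salt response are bound by this floor. Among the 17 root hair, extensin and peroxidase members the difference in salt response was above 0 for 15, the exceptions being EXT12 and EXT13, for 16 in smeb-1 and for 12 in smeb-2. In Col-0 with salt the mean was 0.512 FPKM for EXT12, 0.550 for EXT13 and 1.17 for GSTF14. At such levels the added 1 weighs heavily, so the sign for EXT12 and EXT13 and the size for GSTF14 depend on the scale.

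**Figure D4:**
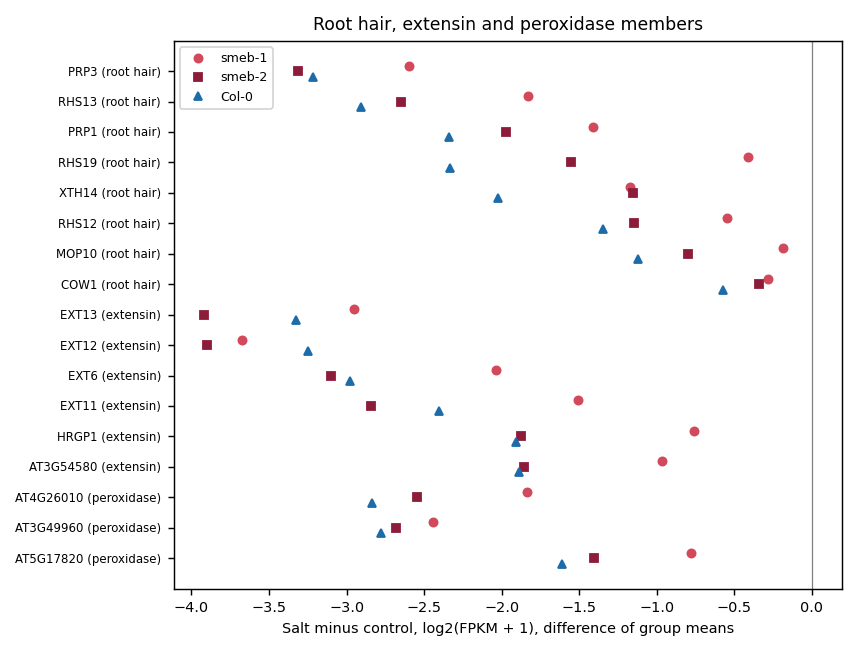
Salt minus control difference of group means on the log2(FPKM + 1) scale for the 17 root hair, extensin and peroxidase members (rows) in smeb-1 (circles), smeb-2 (squares) and Col-0 (triangles). All points lie below 0, and smeb-1 lies nearest to 0 for most members.

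The alleles were set against each other as smeb-2 minus smeb-1. The rule did not use this difference, but it asked that both lines lie above Col-0, which favours genes alike in the 2 lines, so these values are not independent of the choice. No member was called in either treatment. With salt, 0 of 65 were called, against 0.178% of all genes tested higher and 0.109% lower, and 26 members had an unadjusted p under 0.05 in the limma fit, against 13.1% of all genes tested. Of these, 24 were lower in smeb-2, against 5.34%. Without salt, 0 of 65 were called, against 0.0543% higher and 0.0494% lower, and 6 members had an unadjusted p under 0.05, against 6.74%. The median of members was -0.19 with salt and -0.06 without it, against 0.0132 and 0.00716 for all genes tested. The lack of calls does not show that the alleles act alike.

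All 17 root hair, extensin and peroxidase members lay lower in smeb-2 than in smeb-1 with salt, with a median of -0.68, and 13 of 17 without it, with a median of -0.06. Of all genes tested, 46.2% lay lower with salt and 47.2% without it. The widest were RHS19 at -1.20 ± 0.22 (SE, adjusted p = 0.0641), EXT11 at -1.19 ± 0.26 (SE, adjusted p = 0.101) and HRGP1 at -1.17 ± 0.24 (SE, adjusted p = 0.0851). One smeb-1 salt library was higher than the other for all 17, with a median gap of 0.82, and for 50.1% of all genes tested. Set against each smeb-1 library alone, the smeb-2 mean was lower for 17 of 17 either way, with medians of -1.10 and -0.33. Without either one of the Col-0 salt libraries 13 members were called lower in smeb-2, 6 of them among the 17, against 0.968% of all genes tested. Without the smeb-1 salt library in which the 17 were lower, 11 members were called, 10 of them among the 17, against 0.281%. Without the smeb-1 salt library in which they were higher, 0 members were called, against 0.0148%.

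Marker lists were set beside the members, with calls of smeb against Col-0. Of all genes tested, 12.8% were called higher and 14.9% lower with salt, and 11.6% higher and 13% lower without it. Of 9 tested root markers 5 were called higher and 1 lower with salt, and 1 higher and 0 lower without it. Their summed level with salt was 77.3 to 97.9 FPKM in smeb-1, 68.5 to 69.4 FPKM in smeb-2 and 59.8 to 64.1 FPKM in Col-0. Of this, NRT2.1 had 32.3 and 16.1 FPKM in smeb-1, 11.2 and 9.48 FPKM in smeb-2 and 8.98 and 8.41 FPKM in Col-0. Without salt the sums were 60.3 to 61.5 FPKM in smeb-1, 63.6 to 72.5 FPKM in smeb-2 and 56.9 to 61.9 FPKM in Col-0. Among 10 shoot markers 6 were higher and 1 lower with salt, and 1 higher and 5 lower without it. Shoot sums with salt were 22020 to 23060 FPKM in smeb-1, 20098 to 21552 FPKM in smeb-2 and 12558 to 16018 FPKM in Col-0. Without salt they were 20203 to 20775 FPKM in smeb-1, 21800 to 23358 FPKM in smeb-2 and 17588 to 18021 FPKM in Col-0. The sums were higher in smeb while more of the markers were called lower. Of the sums without salt, RBCS1A alone had 12911 and 13104 FPKM in smeb-1, 13748 and 14603 FPKM in smeb-2 and 9970.5 and 10484 FPKM in Col-0. The sums therefore mostly follow this Rubisco gene and not the 10 markers alike. Of 9 seed markers 2 passed the filter, and CRU2 was at 0 in some library of every group. Seed marker sums without salt were 20.7 and 0.102 FPKM in smeb-1, 3.44 and 10.9 FPKM in smeb-2 and 0.294 and 0.231 FPKM in Col-0, so 3 of the 4 smeb libraries lay above Col-0 and the smeb-1 pair was far apart. With salt they were 0.459 to 0.968 FPKM in smeb and 0.657 to 1.26 FPKM in Col-0. Without the smeb-1 control library of the highest sum, the rule found 64 members, 63 of them among the 65. Whether organ makeup or seed RNA had a part in the members' differences was not tested.

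A list of root hair development genes, 21 of them tested, was added after the data were seen. None of the 65 members is in it, but this depends on how the list was put together. COW1, a member needed for root hair tip growth, was not placed in it, so nothing is read from the lack of overlap. With salt 10 of the 21 listed genes were higher in smeb than in Col-0 and 0 lower, and without salt 4 were higher and 1 lower. This list overlaps the root markers: COBL9 and EXPA7, called higher with salt, and RHD6 and WER, not called, are in both. EXPA18, a root hair expansin, differed by 1.96 ± 0.20 (SE, adjusted p = 2.84e-04) in smeb minus Col-0 with salt and, short of the threshold, by 0.61 ± 0.20 (SE, adjusted p = 0.0519) without it. LRX1, a leucine-rich repeat extensin of root hairs, differed by 1.35 ± 0.15 (SE, adjusted p = 3.76e-04) with salt and 0.60 ± 0.15 (SE, adjusted p = 0.0158) without it. GL2, a repressor of root hair fate, was not called with salt, at -0.0029 ± 0.09 (SE, adjusted p = 0.985), and differed by -0.28 ± 0.09 (SE, adjusted p = 0.0401) without it. EXPA18, LRX1 and GL2 were picked after their values were seen. In the flavonoid and anthocyanin list, 9 of 12 tested genes were higher with salt and 5 without, with 0 lower, and all 12 rose with salt in smeb and in Col-0. FLS1 is one of those 12.

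Gene structure was read from the annotation, which the rule did not use. Of 65 members 64 matched the annotation, with a median gene length of 1424.5 bp and a median of 1 intron, against 2356 bp and 3 introns over 20143 tested genes. No intron was annotated in 20 of 64 members, against 17.3% of tested genes. Noncoding RNAs made up 5 of 64, against 0.541% of tested genes, and pseudogenes 3 of 64, against 0.521%. Another gene overlapped 11 of 64 members, against 31.9% of tested genes. No test was made of these shares.

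By chromosome, 14, 9, 9, 12 and 20 of 64 members lay on chromosomes 1 to 5, or 21.9%, 14.1%, 14.1%, 18.75% and 31.25%. In the same order, 26.4%, 15.2%, 19.7%, 15.3% and 23.4% of tested genes lay there. AT2G18193 and AT2G19970 lay 206 kb and 501 kb from SmEb on chromosome 2. XTH14 and AT4G25790 lay 6936 bp apart on chromosome 4.

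Other motifs were searched on both strands in the 300 upstream bases. ACGTG, the core of abscisic acid response elements, occurred in 26 of 64 members, or 40.6%, including 11 of the 17 root hair, extensin and peroxidase members, against 26.7% of tested genes. The extensins were all among the 11. EXT6, EXT11, EXT12 and EXT13 share the stretch around a match, and so do HRGP1 and AT3G54580, so these promoters do not count as independent. TTGAC occurred in 29 of 64, against 50.5%, and TGACG in 11 of 64, against 22.1%. CACGTG occurred in 2 of 64, against 8.14%, and GCCGCC in 0 of 64, against 2.41%. Some of these motifs overlap one another: CACGTG contains the abscisic acid core, which the root hair element can also hold on its other strand, and the motifs TTGAC and TGACG can share letters.

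The authors' deposited splicing tables list 137 events in 131 genes for smeb against Col-0 with salt, and 208 events in 199 genes for Col-0 with salt against without. Those among the genes tested made up 0.647% and 0.963% of them, and 0 of the 65 members were in either table.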

How the data were processed

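RNA of 12 libraries in 6 groups was analysed. The submitters' processing notes name TopHat2 2.0.13, Trimmomatic 0.32 and the build TAIR10. The authors deposited FPKM per gene and library; no source used here names the tool behind it, its annotation or the read totals. The authors' deposited splicing tables give counts and a p-value per event, of which only the listed genes were used. The table had 0 columns of other series. FPKM depends on the library total, so abundant genes shift all others.

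The 20251 genes at an FPKM of 1 or more in at least 2 libraries were fitted with limma 3.58.1 and its trend option (R 4.3.3) after adding 1 and taking log2, with a mean for each group and Benjamini-Hochberg adjustment within each comparison over all genes tested. Calls are at an adjusted p under 0.05. The fit was tested on simulated data. The members, the gene lists and the tests were chosen with earlier results of these data known, roles and the root hair development list after the values were seen. Of 33559 identifiers 32817 matched the TAIR10.1 annotation of RefSeq; of 344 splicing events in annotated genes, 330 lay inside their gene in it. Genes that the selection rule leaves out are not reported here.

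Members named were those with the 12 largest smallest-of-4 differences, the 6 highest mean FPKM, the 3 on each side of the threshold, the 4 largest called rises and falls with salt in smeb and in Col-0, the 3 largest and smallest differences in salt response, neighbours within 10 kb, and members of a list. Other members are named within their role and were chosen after their values were seen. The alternatives left out each library in turn, set other thresholds of the rule, asked for a minimum fold of 2, blocked on the column suffix, fitted the compared groups alone, scaled by quantiles or by median ratios, dropped the filter, or added 0.1 in place of 1.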

Additional observations from a re-analysis of the deposited data

How the results depend on the processing

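The counts of members that fell with salt stayed within 1.5 times the reported counts under all alternatives, and those that rose did so except with a minimum fold of 2, which left 9 of 15 in smeb and 8 of 15 in Col-0. With the column suffix as a replicate block, 35 fell and 15 rose in smeb, and 32 fell and 14 rose in Col-0. The suffixes cannot be tied to the replicate numbers of the labels, and deviations of libraries with the same suffix correlated at -0.125 to 0.112 over 15 pairs of groups (median 0.00935), so the numbers were not shown to pair the libraries. Between the alleles the block left 0 members called in either treatment.

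Leaving out single libraries gave 0 to 13 members called lower in smeb-2 than in smeb-1 with salt and 0 to 1 without it, on the assumption that a lone library varies as much as other groups' libraries do. Leaving out a Col-0 library removes only a spread estimate from these comparisons.

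The rule itself is sensitive to its threshold. It finds 154 members at a difference of at least 0.5, 21 at 1.0, and 106 with a pseudocount of 0.1. Leaving out a library gave 57 to 80 members, the fewest without one Col-0 salt library and the most without the other. Of the 65 members, 52 to 63 were found again. GER3 was not called with salt in the main limma fit, at -0.15 in smeb (adjusted p = 0.0867) and -0.12 in Col-0 (adjusted p = 0.340). Under quantile normalization its sign reversed and it was called, at 0.55 in smeb (adjusted p = 0.00103) and 0.39 in Col-0 (adjusted p = 0.0465). The cause was not tested. Depth is known only relative to other libraries, so no counting error is given for low values.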
